A study of Mus musculus with 6 samples.

Results

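The genes of the ARF cycle were examined in LPS-treated bone marrow-derived macrophages (BMDMs) from GIT1 CKO and GIT1 CWT mice. They were taken as the rows of the deposited gene table whose symbol is that of an ARF GTPase, an ARF GTPase-activating protein (GAP) or an ARF guanine nucleotide exchange factor (GEF), without Git1 and Git2. This gave 37 of the 52550 genes of the table, of which 6 are GTPases, 21 are GAPs and 10 are GEFs. All 37 passed the filter on low counts and were tested.

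GIT1 CKO mice carry a floxed Git1 gene and Cre recombinase driven by Lyz2, which is active in myeloid cells, so that other cell types of these mice keep the gene. The group that the submitters label CWT was taken as floxed mice without Cre, since the study has no other control, although the label does not say this. All animals are listed as C57BL/6, and the age of the donors is not given in these sources. Bone marrow cells of both groups were freed of red cells, kept in M-CSF (25 ng/ml), which turns them into macrophages, over 7 days and treated with 100 ng/ml of LPS, a bacterial cell wall component that activates macrophages. The mRNA of 3 GIT1 CKO and 3 GIT1 CWT samples was sequenced, and it is not given how many mice each sample holds.

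ARF GTPases are small membrane-bound switches. A GEF loads them with GTP, which lets them bind membranes and recruit vesicle coats, adaptors and lipid kinases, and a GAP makes them hydrolyse the GTP and let go. In macrophages ARF6 and its regulators are known for membrane recycling, phagocytosis and actin remodelling at the cell surface, and ARF1 and its regulators for traffic at the Golgi. GIT1 and GIT2 are themselves ARF GAPs that also act as scaffolds.

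The 6 GTPases are close relatives, and their sequences are shown because reads of one could be counted for another. The bases below are 66 coding bases around the loop that holds the phosphates of the nucleotide, read from GENCODE M21 transcripts (GRCm38), with the 24 bases that code for the loop in capitals.
Arf1: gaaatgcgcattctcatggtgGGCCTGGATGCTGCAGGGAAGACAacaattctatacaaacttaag
Arf2: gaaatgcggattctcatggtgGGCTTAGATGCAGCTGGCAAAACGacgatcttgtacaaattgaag
Arf3: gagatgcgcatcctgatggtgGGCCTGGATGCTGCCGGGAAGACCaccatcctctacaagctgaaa
Arf4: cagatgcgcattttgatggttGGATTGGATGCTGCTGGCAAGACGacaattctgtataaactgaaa
Arf5: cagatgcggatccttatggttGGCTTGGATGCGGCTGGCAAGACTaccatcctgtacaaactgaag
Arf6: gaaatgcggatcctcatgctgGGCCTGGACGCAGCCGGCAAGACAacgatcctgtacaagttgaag
They lie in exon 2 of Arf1 (chr11:59213374-59213439, minus strand), Arf2 (chr11:103969146-103969211, plus strand), Arf3 (chr15:98742627-98742692, minus strand) and Arf6 (chr12:69372830-69372895, plus strand). In Arf4 (chr14:26638468-26646705, plus strand) and Arf5 (chr6:28423737-28424336, plus strand) the stretch spans the junction of exons 1 and 2. Between 17 and 22 of the 24 loop bases were alike over the 15 pairs of GTPases, and whole coding sequences were alike at 61.6% to 83.7% of bases, with Arf1 and Arf3 the closest pair.

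The longest run of bases that any pair of GTPases shared was 39 bases of Arf1 and Arf6. It is printed in capitals, since every base of it is the same in both genes, because the ratio of these genes is described further on.
Arf1 and Arf6: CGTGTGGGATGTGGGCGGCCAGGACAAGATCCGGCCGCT
It covers coding bases 192 to 230 of Arf1 (exon 3, chr11:59213172-59213210) and 180 to 218 of Arf6 (exon 2, chr12:69372973-69373011). Within the GAP and GEF families the longest shared runs were 12 to 32 bases over 28 pairs of genes, the longest being those of Cyth2 with Cyth3 and of Iqsec1 with Iqsec2. Neither the read length nor the counting of reads that fit several genes is stated in the sources used here.

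Depth was 81131281 to 157485640 counts per GIT1 CKO library and 61895190 to 68083745 per GIT1 CWT library. Even the member with the fewest counts in any library, Asap3, had 27. Levels are given as CPM, edgeR's counts of a gene relative to the TMM-scaled total of its library, and between genes as CPM per kilobase of exon. Pearson's r of log2 CPM across the 16287 genes tested was 0.978 to 0.989 between GIT1 CKO libraries and 0.952 to 0.971 between GIT1 CWT libraries. Replicate 2 of GIT1 CWT stood farthest from the rest. Replicate 1 of GIT1 CWT correlated with each GIT1 CKO library at 0.972, and with replicates 2 and 3 of its own group at 0.952 and 0.971. Xist was at 1051, 1111 and 1058 CPM in GIT1 CKO libraries, against 607, 226 and 384 CPM in GIT1 CWT libraries, and 4 Y-linked genes summed to 0, 4 and 0 counts, against 5104, 1776 and 3456 counts. The make-up of the groups by donor sex therefore differed and cannot be told apart from the genotype. Git1 itself stood at 72.8, 74.5 and 73.8 CPM in GIT1 CKO libraries, against 71.9, 103 and 82.2 CPM in GIT1 CWT libraries (log2 fold change -0.22, standard error 0.145, adjusted p = 0.447 in edgeR's quasi-likelihood test). Counts over the whole gene include any exons that Cre leaves and so do not check the deletion. All 11 gene models of 10 macrophage markers were expressed and summed to 30478 to 32116 CPM in GIT1 CKO libraries, against 46047 to 55015 CPM in GIT1 CWT libraries. The gap lay in Lyz2, the gene that drives the Cre, with a mean of 16031 CPM in GIT1 CKO libraries and 35260 CPM in GIT1 CWT libraries (adjusted p = 0.0153 in edgeR). The other 10 models summed to 14992 to 15169 CPM in GIT1 CKO libraries, within the 14287 to 15493 CPM of GIT1 CWT libraries. Of these models 6 had a log2 fold change above 0, and the sum hides differences in both directions. Csf1r averaged 5527 CPM in GIT1 CKO libraries and 6730 CPM in GIT1 CWT libraries, and Mertk 199 and 241 CPM. Adgre1 averaged 3992 and 2854 CPM, and Fcgr1 473 and 326 CPM. None of these markers passed the test (adjusted p = 0.101 to 0.243 in edgeR). Of markers of other cell types, the neutrophil genes Camp and Ly6g, the T cell gene Cd3g and the B cell gene Blk had 0 counts in all libraries. The T and NK cell list summed to 27.3 to 31.7 CPM in GIT1 CKO libraries and 19.7 to 22.6 CPM in GIT1 CWT libraries. Cd4 made up most of it. The B cell list summed to 30.7 to 32.7 CPM, against 24.8 to 27.4 CPM, mostly from Cd79b and Cd22. Neither of these sums overlapped between the groups. The fibroblast list summed to 39.1 to 42.5 CPM, against 31.7 to 41.3 CPM. The endothelial gene Vwf averaged 25.7 CPM, against 40.9 CPM (adjusted p = 0.0962 in edgeR). The neutrophil marker Csf3r averaged 164 CPM in GIT1 CKO libraries and 162 CPM in GIT1 CWT libraries. Neutrophil markers other than Csf3r summed to 0.162 to 0.334 CPM in GIT1 CKO libraries and 0.0745 to 0.351 CPM in GIT1 CWT libraries. The dendritic cell, mast cell and erythroid lists summed to at most 5.38 CPM in any library. The osteoclast markers summed to 1732 to 1756 CPM, against 1283 to 1472 CPM, mostly from Mmp9, and without it to 335 to 374 CPM, against 262 to 369.9 CPM, with 3 models above and 3 below 0. Among the markers of other cell types only Pecam1, which endothelial cells and many macrophages express, passed the test, averaging 18.0 CPM in GIT1 CKO libraries and 8.38 CPM in GIT1 CWT libraries (adjusted p = 0.0162 in edgeR). The part of these differences in the results below was not tested.

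The first question was how much of each member LPS-treated macrophages held. Transcripts were unevenly spread over each role. The class I GTPase Arf1, which recruits the COPI coat at the Golgi, was the most abundant member at 182 to 239 CPM per kilobase over the 6 libraries. Cyth4, a cytohesin GEF of white blood cells, followed at 119.6 to 166 CPM per kilobase, with the GAP Adap2, which binds the phosphoinositides that PI3 kinase makes, at 113 to 135 CPM per kilobase. The ranges of Cyth4 and Adap2 overlapped, although Cyth4 was above Adap2 within every library, and the range of Arf1 lay above both. Arf6 at 84.3 to 109 and the clathrin-binding GAP Smap2 at 82.9 to 107 CPM per kilobase came next and overlapped each other. At the low end Agap2, Acap1 and Asap3 ranged from 0.0809 to 0.862 CPM per kilobase, and Asap2 and Arap2 stayed under 1 CPM per kilobase as well.

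**Figure D1:**
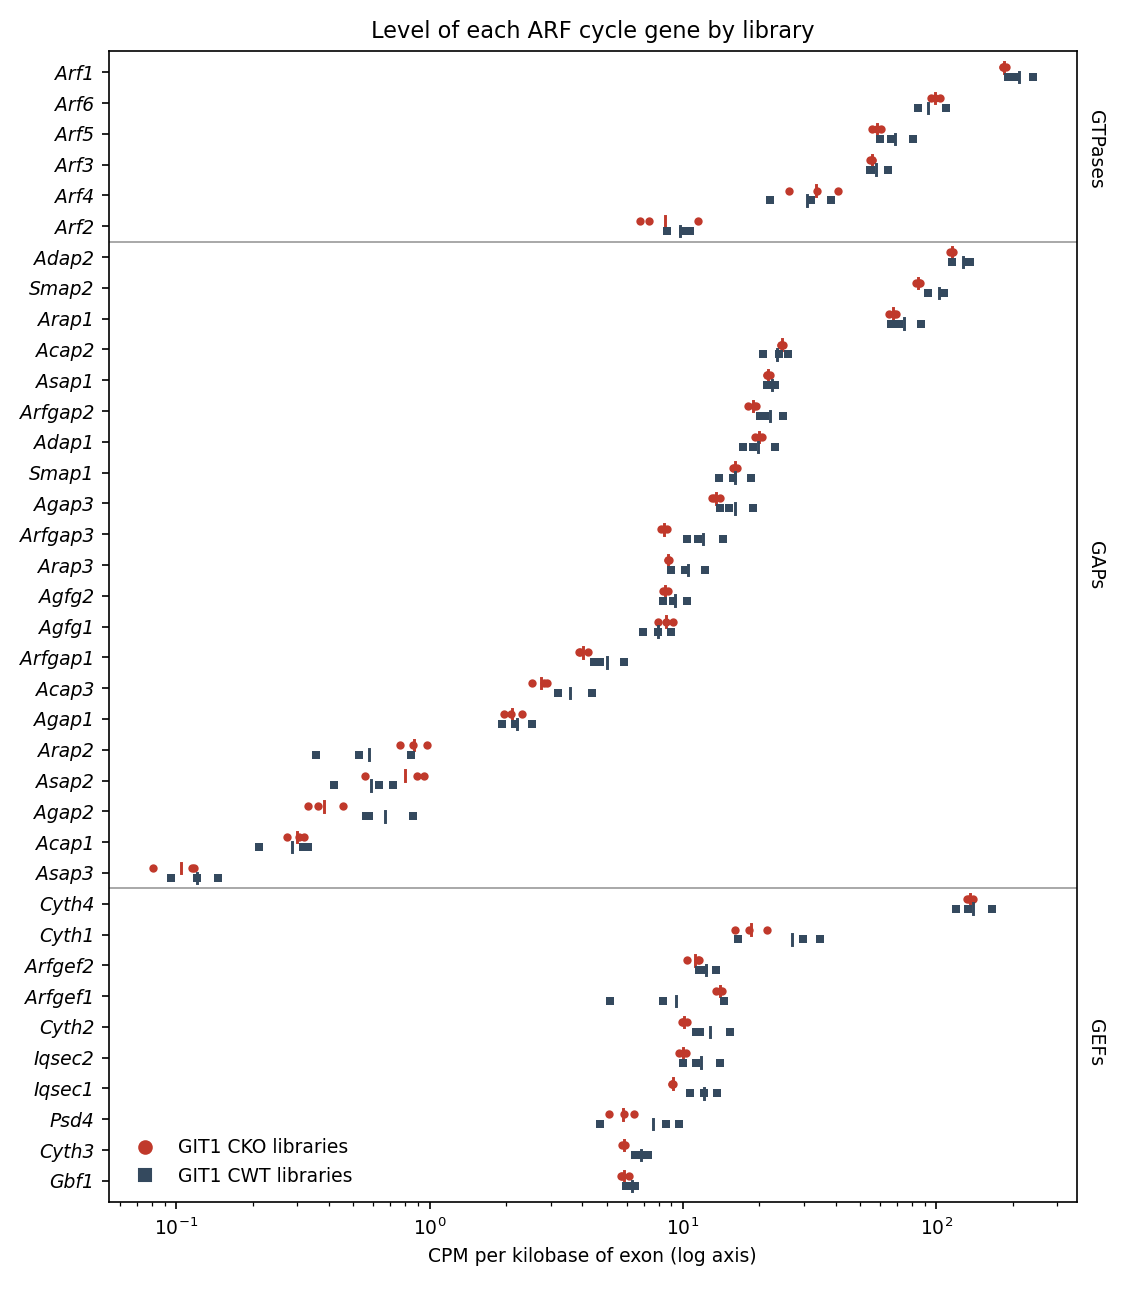
CPM per kilobase of exon (log axis) of the 37 ARF cycle genes, grouped as GTPases, GAPs and GEFs and ordered by level within each group. Circles are the 3 GIT1 CKO libraries, squares the 3 GIT1 CWT libraries and short bars the group means; the genes span from Asap3 at 0.0809 to Arf1 at 239, and the GIT1 CKO circles lie closer together than the GIT1 CWT squares for most genes.

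Each role was dominated by few genes. Among the GTPases Arf1 made up 41.3% to 43.2% of the summed CPM per kilobase in GIT1 CKO libraries and 43.5% to 46.4% in GIT1 CWT libraries. Among the GEFs Cyth4 made up 59.8% to 60.3% in GIT1 CKO libraries and 55.4% to 58.1% in GIT1 CWT libraries. The GAPs were led by Adap2, Smap2 and Arap1, with mean shares in GIT1 CKO libraries of 26.9%, 19.9% and 15.7%, against 26.7%, 21.5% and 15.6% in GIT1 CWT libraries.

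The second question was which members differ between GIT1 CKO and GIT1 CWT macrophages. None of the 37 passed the test in either direction. At an adjusted p under 0.05 over all genes tested (edgeR's quasi-likelihood test with Benjamini-Hochberg adjustment), 0 members were called higher and 0 lower in GIT1 CKO, where 0.485% of all genes tested were called higher and 0.27% lower. The smallest adjusted p of a member was 0.158. By the study's own threshold (over 1.5-fold at an unadjusted p under 0.05), 0 members were higher (6.48% of all genes) and 1 was lower (2.14% of all genes), namely Agap2. At an unadjusted p under 0.05 alone, 0 members were higher (9.06% of all genes) and 8 were lower (8.45% of all genes). DESeq2 called 0 members higher (4.05% of all genes) and 2 lower (2.75% of all genes), Arfgap3 and Iqsec1, and limma-voom called 0 in either direction (0.577% higher and 0.313% lower of all genes). Without GIT1 CWT replicate 1 edgeR called Arfgap3, Cyth1, Iqsec1 and Psd4 lower (1.79% of all genes) and Arfgef1 higher (4.99% of all genes), and without GIT1 CWT replicate 2 it called Smap2 lower (0.821% of all genes).

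Small differences in one direction were common among the members. The log2 fold change was below 0 in 28 of 37 members (49.1% of all genes tested), and its median was -0.16 over the members and 0.01 over all genes tested. In 12 members every GIT1 CKO library lay below every GIT1 CWT library (15.1% of all genes), and in 0 every GIT1 CKO library lay above (13.6% of all genes). These 12 were Arf1, the GAPs Smap2, Arfgap2, Arfgap3, Arfgap1, Arap3, Acap3 and Agap2, and the GEFs Arfgef2, Cyth2, Cyth3 and Iqsec1. None of these differences passed the test for its gene. The 95% interval of the fold change lay within 1.5-fold either way for 22 of 37 members (33.6% of all genes). Without GIT1 CWT replicate 2 the count below 0 was 24 (46.2% of all genes) and the median -0.07. Without GIT1 CWT replicate 1 all GIT1 CKO libraries lay below all GIT1 CWT libraries in 21 members (25.4% of all genes) and above them in 4 (27.5% of all genes). With any other library left out they lay below in 12 to 16 members (17.7% to 21% of all genes). They lay above in 0 to 2 members (16% to 19.5% of all genes). Fewer cells of a kind and less RNA per cell cannot be told apart in these bulk samples.

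**Figure D2:**
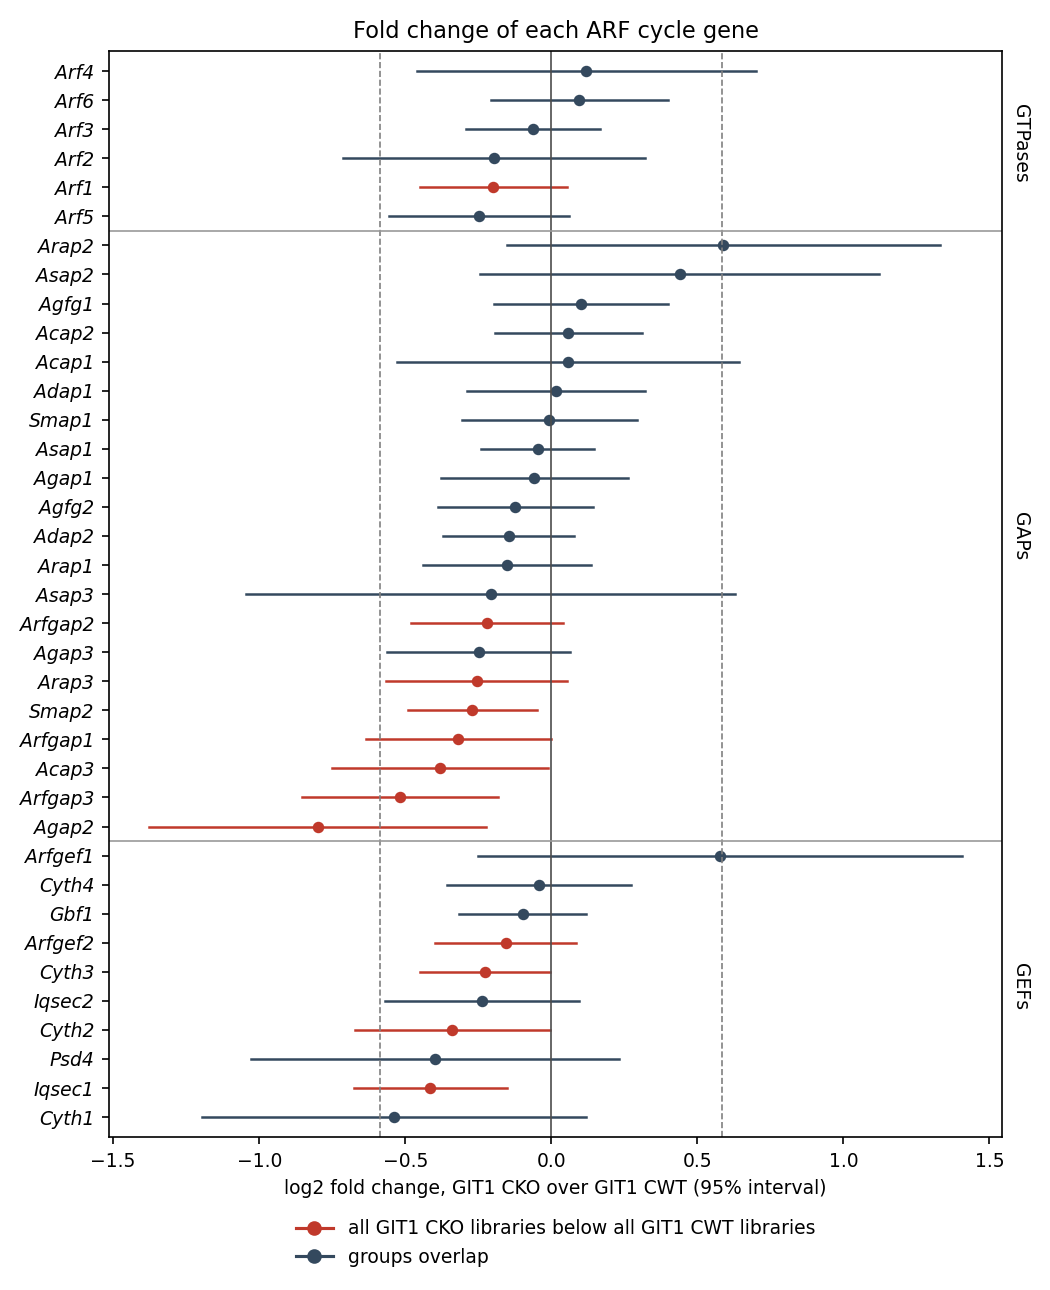
Log2 fold change of GIT1 CKO over GIT1 CWT for the 37 ARF cycle genes, with 95% intervals from edgeR (n = 3 libraries each) and dashed lines at 1.5-fold. The 12 red points are genes whose GIT1 CKO libraries all lay below the GIT1 CWT libraries; 28 points lie left of 0, and of all of them only Agap2 at -0.80 is beyond the lower dashed line.

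The class I GTPases act mainly at the Golgi. Arf1 had 384, 381 and 393 CPM in GIT1 CKO libraries, against 399, 500.1 and 429 CPM in GIT1 CWT libraries. The GIT1 CKO libraries all lay below the GIT1 CWT libraries, by a gap smaller than the spread among the GIT1 CWT libraries, and the log2 fold change was -0.20 (standard error 0.106, adjusted p = 0.37). Arf3 had 265, 269.6 and 269 CPM in GIT1 CKO libraries, against 266, 309.9 and 263 CPM in GIT1 CWT libraries (log2 fold change -0.06, standard error 0.0956, adjusted p = 0.741). Its groups overlapped, and only GIT1 CWT replicate 2 stood clear of the other libraries. Arf2, which humans lack, had 21.9, 34.3 and 20.3 CPM in GIT1 CKO libraries, against 31.9, 25.8 and 29.9 CPM in GIT1 CWT libraries. Here a GIT1 CKO library, replicate 2, was the highest of all (log2 fold change -0.20, standard error 0.217, adjusted p = 0.645).

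Arf4 and Arf5 form class II, which works between the endoplasmic reticulum and the Golgi. Arf4 had 94.0, 121 and 147 CPM in GIT1 CKO libraries, against 138, 115 and 79.7 CPM in GIT1 CWT libraries, so that both groups spread widely over the same range (log2 fold change 0.12, standard error 0.242, adjusted p = 0.803). Its sign turned to -0.16 once each library's GC trend was removed. Arf5 had 111, 115 and 106 CPM in GIT1 CKO libraries, against 114, 154 and 126 CPM in GIT1 CWT libraries. Only GIT1 CWT replicate 1 reached into the range of the GIT1 CKO libraries (log2 fold change -0.25, standard error 0.129, adjusted p = 0.362). The gene models of Arf4 and Arf5 overlap those of Pde12 and Gcc1 on the other strand, which had 26.7% and 31.4% as many counts, and the use of strand in counting is not stated.

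Arf6 (chromosome 12, 69372150 to 69373783, plus strand; gene positions are those of the deposited table), the class III GTPase of the cell surface and endosomes, had 146, 151 and 159 CPM in GIT1 CKO libraries, against 129, 168 and 129.7 CPM in GIT1 CWT libraries. Replicates 1 and 3 of GIT1 CWT were below all GIT1 CKO libraries and replicate 2 was above them. The log2 fold change was 0.10 (standard error 0.127, 95% interval -0.21 to 0.40, adjusted p = 0.698).

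The make-up of the GTPases was compared next, because a ratio of genes within a library does not depend on how that library is scaled. It was chosen after the values were seen and is a description with no test. Arf6 made up 22.3% to 23.0% of the summed CPM per kilobase of the 6 GTPases in GIT1 CKO libraries, against 19.1% to 20.4% in GIT1 CWT libraries. The groups did not overlap, and for Arf1 they lay in the opposite order, as given above. The ratio of Arf6 to Arf1 CPM was 0.381, 0.396 and 0.404 in GIT1 CKO libraries, against 0.324, 0.335 and 0.302 in GIT1 CWT libraries. Arf6 and Arf1 share the 39-base run printed above and differ in GC content (60.0% and 53.0%). Arf5 has a GC content of 59.9%, and its longest run shared with Arf6 is 15 bases. The ratio of Arf6 to Arf5 CPM was 1.31, 1.31 and 1.4996 in GIT1 CKO libraries, against 1.13, 1.09 and 1.03 in GIT1 CWT libraries. The gene model of Arf5 overlaps that of Gcc1 on the other strand, as given above. The part of shared reads, GC content or overlapping genes in these ratios was not tested. Neither ratio overlapped between the groups. The log2 fold change of Arf6 exceeded that of Arf1 by 0.29 and that of Arf5 by 0.34. Arf1 and Arf5 had the lowest log2 fold changes of the 6 GTPases. That of Arf4 was 0.12, above the 0.10 of Arf6, so the shift of Arf6 does not hold against every GTPase. How often the ratios of other gene pairs do not overlap was not counted. None of Arf6, Arf1 and Arf5 passed the test by itself, and neither ratio says which gene differs.

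**Figure D3:**
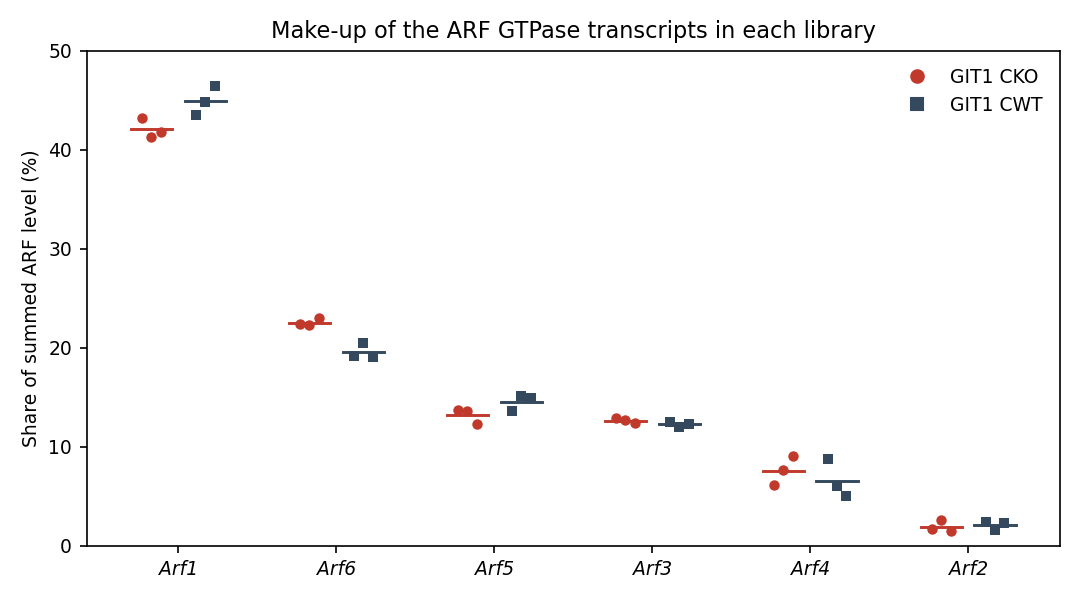
Share of each GTPase in the summed CPM per kilobase of the 6 ARF GTPases, by library (circles, GIT1 CKO; squares, GIT1 CWT; lines, group means; n = 3 each). Arf6 lies at 22.3% to 23.0% in GIT1 CKO libraries and 19.1% to 20.4% in GIT1 CWT libraries, Arf1 at 41.3% to 43.2% and 43.5% to 46.4%, and the shares of Arf5, Arf3, Arf4 and Arf2 overlap between the groups.

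Among the 21 GAPs, edgeR called 0 in either direction, where 0.485% of all genes were called higher and 0.27% lower. At an unadjusted p under 0.05, 0 GAPs were higher (9.06% of all genes) and 5 lower (8.45% of all genes), 15 had a log2 fold change below 0 (49.1% of all genes) and the median was -0.15. Summed over the GAPs, GIT1 CKO libraries had 1924 to 1949 CPM and GIT1 CWT libraries 2039 to 2267 CPM, which did not overlap. Arap1, Smap2 and Adap2 weigh most in this sum, and Arap1 and Adap2 by themselves overlapped between the groups. Arfgap3 (chromosome 15, 83299740 to 83350247, minus strand), which acts with the COPI coat, had 32.4, 31.4 and 33.1 CPM in GIT1 CKO libraries, against 39.6, 55.1 and 43.8 CPM in GIT1 CWT libraries. The GIT1 CKO libraries were tightly grouped below the others, and the log2 fold change of -0.52 (standard error 0.141) had an adjusted p of 0.163 in edgeR and 0.0399 in DESeq2. Arfgap2, its close relative, had 80.2, 78.9 and 74.6 CPM in GIT1 CKO libraries, against 83.4, 102 and 87.0 CPM in GIT1 CWT libraries (log2 fold change -0.22, standard error 0.109, adjusted p = 0.343). Its gene model overlaps that of 1110051M20Rik on the other strand, which had 36.9% as many counts. Arfgap1, the founding member of this family, did not overlap between the groups either, at 20.9 to 22.6 CPM in GIT1 CKO libraries and 23.9 to 31.5 CPM in GIT1 CWT libraries (adjusted p = 0.283).

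Smap2, which binds clathrin at the trans-Golgi network, had 262, 269.9 and 273 CPM in GIT1 CKO libraries, against 339, 293 and 339 CPM in GIT1 CWT libraries. Unlike most members it was lowest among the GIT1 CWT libraries in replicate 2, and its log2 fold change was -0.27 (standard error 0.093, adjusted p = 0.222). Without that replicate, the nearest of its group to the GIT1 CKO libraries, the adjusted p was 0.0452 at a log2 fold change of -0.31. In other settings the adjusted p reached 0.554. Smap1, a GAP for ARF6 in clathrin-dependent uptake, was at 56.0 to 58.5 CPM in GIT1 CKO libraries and 49.7 to 66.1 CPM in GIT1 CWT libraries (log2 fold change -0.01). Its gene model overlaps B3gat2 on the other strand, with 31.9% as many counts.

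The ACAP and ASAP families act on ARF6 and ARF1 at endosomes and at adhesions. Acap2, the most abundant ACAP per kilobase, had 164, 166 and 163 CPM in GIT1 CKO libraries, against 174, 139.6 and 161 CPM in GIT1 CWT libraries (log2 fold change 0.06, standard error 0.105, adjusted p = 0.778). Acap3 had 13.6, 15.6 and 15.1 CPM in GIT1 CKO libraries, against 17.2, 23.4 and 17.2 CPM in GIT1 CWT libraries, with no overlap (log2 fold change -0.38, standard error 0.155, adjusted p = 0.275). Acap1 was near 1 CPM, with 1.33 to 1.55 CPM in GIT1 CKO libraries and 1.04 to 1.62 CPM in GIT1 CWT libraries. Asap1, a GAP of focal adhesions and podosomes, had the smallest standard error of these genes. It stood at 160.1, 161 and 165 CPM in GIT1 CKO libraries, against 170.0, 160.1 and 172 CPM in GIT1 CWT libraries, and the 95% interval of its log2 fold change was -0.24 to 0.15. Asap2 had 6.61, 3.86 and 6.23 CPM in GIT1 CKO libraries, against 4.98, 4.41 and 2.91 CPM in GIT1 CWT libraries (log2 fold change 0.44, standard error 0.286, adjusted p = 0.444), and the gene Itgb1bp1, which overlaps it on the other strand, had 302% as many counts. Asap3 was the least abundant member, at 0.342 to 0.498 CPM in GIT1 CKO libraries and 0.402 to 0.615 CPM in GIT1 CWT libraries.

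AGAP proteins carry a GTPase-like domain beside the GAP domain and bind adaptor complexes. Agap2 (chromosome 10, 127075284 to 127093169, plus strand), also known as PIKE for its action on PI3 kinase, had 1.96, 2.71 and 2.15 CPM in GIT1 CKO libraries, against 3.42, 5.12 and 3.34 CPM in GIT1 CWT libraries. All GIT1 CKO libraries lay below the GIT1 CWT libraries, and the log2 fold change was -0.80 (standard error 0.242, 95% interval -1.38 to -0.22, adjusted p = 0.189). It has the highest GC content of the members (63.0%), and no longer met the study's threshold without GIT1 CKO replicate 1 (log2 fold change -0.70) or without GIT1 CWT replicate 2 (-0.54). Agap3 had 70.6, 74.7 and 69.4 CPM in GIT1 CKO libraries, against 74.6, 100.0 and 80.5 CPM in GIT1 CWT libraries (log2 fold change -0.25, standard error 0.131, adjusted p = 0.365). Agap1 overlapped, at 34.5 to 40.6 CPM in GIT1 CKO libraries and 33.8 to 44.4 CPM in GIT1 CWT libraries.

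ARAP proteins are ARF GAPs that bind phosphoinositides. Arap1 had 581, 572 and 547 CPM in GIT1 CKO libraries, against 557, 735 and 598 CPM in GIT1 CWT libraries, so that only replicate 2 of GIT1 CWT was far from the rest (log2 fold change -0.15, standard error 0.121, adjusted p = 0.52). Arap3 had 69.4, 70.3 and 69.2 CPM in GIT1 CKO libraries, against 71.2, 97.0 and 81.1 CPM in GIT1 CWT libraries (log2 fold change -0.25, standard error 0.13, adjusted p = 0.354). Arap2 ran the other way and had the highest log2 fold change of the members, 0.59 (standard error 0.31, adjusted p = 0.365). It had 9.53, 10.7 and 12.1 CPM in GIT1 CKO libraries, against 10.5, 4.44 and 6.52 CPM in GIT1 CWT libraries, and GIT1 CWT replicate 1 lay within the range of the GIT1 CKO libraries.

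The ADAP proteins bind inositol phosphates and the AGFG proteins act in vesicle traffic with an ARF GAP domain. Adap2 had 206, 208 and 201.5 CPM in GIT1 CKO libraries, against 205, 241 and 235 CPM in GIT1 CWT libraries (log2 fold change -0.15, standard error 0.094, adjusted p = 0.439). Adap1 was at 63.6 to 67.3 CPM in GIT1 CKO libraries and 56.7 to 75.6 CPM in GIT1 CWT libraries, and both genes overlapped between the groups. Agfg2 had 33.3, 32.4 and 31.9 CPM in GIT1 CKO libraries, against 31.9, 39.5 and 34.9 CPM in GIT1 CWT libraries (log2 fold change -0.12, standard error 0.112, adjusted p = 0.569). Agfg1, with the lowest GC content of the members, was at 66.9 to 76.4 CPM in GIT1 CKO libraries and 58.0 to 75.4 CPM in GIT1 CWT libraries (log2 fold change 0.10).

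Of the 10 GEFs, edgeR called 0 in either direction, where 0.485% of all genes were called higher and 0.27% lower. At an unadjusted p under 0.05, 0 GEFs were higher (9.06% of all genes) and 3 lower (8.45% of all genes), 9 had a log2 fold change below 0 (49.1% of all genes) and the median was -0.23. Their summed CPM overlapped between the groups, at 1724 to 1789 in GIT1 CKO libraries and 1648 to 2125 in GIT1 CWT libraries. Iqsec1 (chromosome 6, 90656088 to 90988685, minus strand), also known as BRAG2, loads ARF6 during integrin uptake and had the smallest p of the members. It had 106, 105 and 105 CPM in GIT1 CKO libraries, against 124, 157.5 and 140.0 CPM in GIT1 CWT libraries. The GIT1 CKO libraries were almost equal and all lay below the GIT1 CWT libraries, and the log2 fold change was -0.41 (standard error 0.109, 95% interval -0.68 to -0.15). Its adjusted p was 0.158 in edgeR, 0.0436 in DESeq2 and 0.037 with the GC trend removed. Iqsec2, which lies on the X chromosome and is best known from synapses, had 69.9, 71.4 and 67.5 CPM in GIT1 CKO libraries, against 69.9, 97.8 and 78.5 CPM in GIT1 CWT libraries (log2 fold change -0.24, standard error 0.139, adjusted p = 0.405).

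Cytohesins are GEFs that phosphoinositides bring to the plasma membrane, and they include the most abundant GEF of these cells. Cyth4 had 1014, 1001 and 1054 CPM in GIT1 CKO libraries, against 904, 1253 and 1002 CPM in GIT1 CWT libraries. The groups overlapped, with the highest and the lowest library both in GIT1 CWT (log2 fold change -0.04, standard error 0.132, adjusted p = 0.882). Cyth3 had 54.4, 55.4 and 55.1 CPM in GIT1 CKO libraries, against 60.8, 68.7 and 63.5 CPM in GIT1 CWT libraries, with no overlap (log2 fold change -0.23, standard error 0.0932, adjusted p = 0.277). Cyth2 did not overlap either, at 34.1 to 35.6 CPM in GIT1 CKO libraries and 38.7 to 52.7 CPM in GIT1 CWT libraries (log2 fold change -0.34, adjusted p = 0.281). Cyth1, which binds the cytoplasmic tail of leukocyte integrins, had 71.4, 62.6 and 83.5 CPM in GIT1 CKO libraries, against 64.5, 136 and 116 CPM in GIT1 CWT libraries. Its value in GIT1 CWT replicate 1 lay among those of the GIT1 CKO libraries (log2 fold change -0.54, standard error 0.275, adjusted p = 0.355, and 0.0394 without that replicate). As that replicate was the library that overlapped, the smaller p without it adds no support.

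The large GEFs open the ARF cycle along the Golgi, Gbf1 on its early side and Arfgef1 and Arfgef2 at the trans-Golgi network. Arfgef2 had 90.7, 100.4 and 101 CPM in GIT1 CKO libraries, against 102, 118 and 106 CPM in GIT1 CWT libraries (log2 fold change -0.16, standard error 0.101, adjusted p = 0.441). Arfgef1 had 153, 159 and 162 CPM in GIT1 CKO libraries, against 165, 58.2 and 94.7 CPM in GIT1 CWT libraries. One GIT1 CWT library was thus above all GIT1 CKO libraries and the others far below them, and the log2 fold change was 0.58 (standard error 0.346, adjusted p = 0.414). Without GIT1 CWT replicate 1 it was 1.04 with an adjusted p of 0.0438, and without GIT1 CWT replicate 2 it was 0.31 with an adjusted p of 0.505. Gbf1 overlapped, at 61.7 to 66.6 CPM in GIT1 CKO libraries and 64.9 to 70.0 CPM in GIT1 CWT libraries. Psd4, an ARF6 GEF of the EFA6 family, had 69.0, 75.2 and 60.4 CPM in GIT1 CKO libraries, against 55.5, 113 and 101 CPM in GIT1 CWT libraries. Its log2 fold change was -0.40 (standard error 0.263, adjusted p = 0.451). Without GIT1 CWT replicate 1, the only library of its group below the GIT1 CKO libraries, the adjusted p was 0.0412. In other settings it reached 0.764.

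The spread between replicates differed between the groups. The coefficient of variation of CPM was higher in GIT1 CWT for 34 of 37 members (77.3% of all genes tested). Its median over the members was 3.78% in GIT1 CKO and 15.2% in GIT1 CWT libraries, where that over all genes tested was 8.37% and 19.97%. The highest of the 6 libraries was GIT1 CWT replicate 2 for 25 members (32.4% of all genes), and the lowest was that library for 5 members (33.4% of all genes).

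GC content moved with this pattern. The GC content of the longest transcript was 41.9% to 63.0% over the members with a median of 53.2%, against a median of 49.6% over all genes tested. The 2 members that were lowest relative to the other GIT1 CWT libraries in replicate 2, Arfgef1 and Arap2, had 42.3% and 42.5% GC, and the member that was highest, Agap2, had 63.0%. Over the 37 members the Spearman correlation was 0.66 between GC content and the log2 ratio of GIT1 CWT replicate 2 to the mean of replicates 1 and 3, and -0.46 between GC content and the log2 fold change. Over 16253 genes with a known GC content the values were 0.66 and -0.43, so the members followed the trend of the table. All points share the same libraries and are not independent. After each library's GC trend was removed, the median log2 fold change of the members was -0.08, 25 of 37 were below 0 (51.6% of all genes), 1 member was called lower (Iqsec1, 2.26% of all genes) and 0 were called higher (2.71% of all genes). The sign of the log2 fold change turned with it for Arf3, Arf4, Acap2, Arap1, Agfg2, Cyth4, Agap1, Agfg1 and Gbf1, whose values without the removal lay between -0.15 (Arap1) and 0.12 (Arf4).

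**Figure D4:**
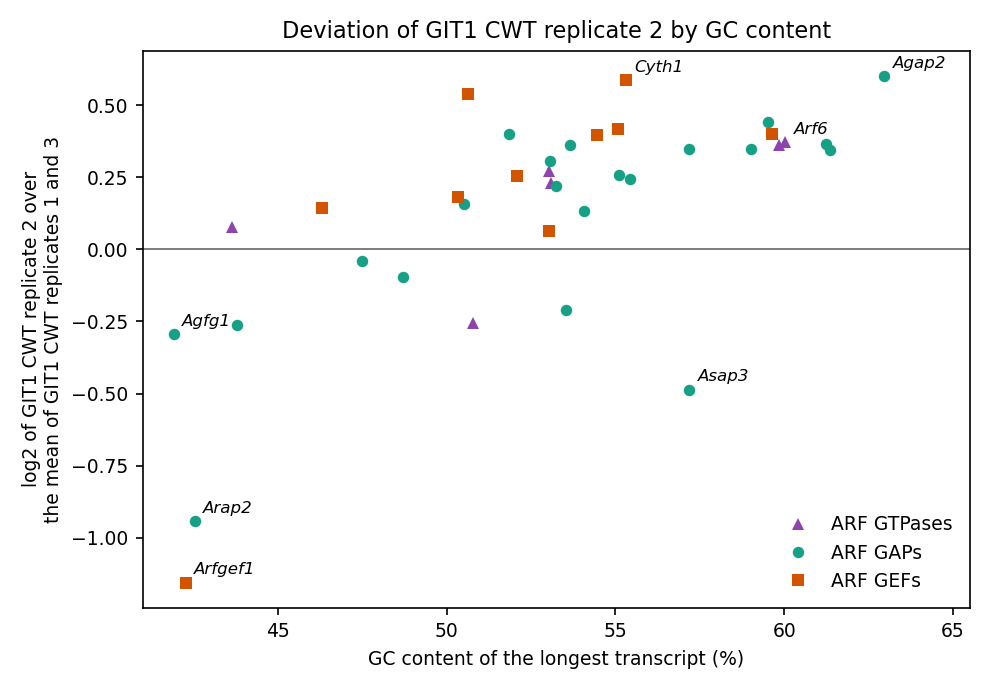
Log2 ratio of CPM in GIT1 CWT replicate 2 over the mean of GIT1 CWT replicates 1 and 3, against the GC content of the longest transcript, for the 37 ARF cycle genes (triangles, GTPases; circles, GAPs; squares, GEFs). The ratio runs from -1.16 for Arfgef1 at 42.3% GC to 0.60 for Agap2 at 63.0% GC, with Asap3 low at 57.2% GC.

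Genes that work with the ARF cycle were counted in the same fit, from 5 lists written from known roles. Of the 78 genes tested in them, edgeR called 0 higher (0.485% of all genes) and 0 lower (0.27% of all genes), DESeq2 called 1 higher (4.05% of all genes) and 1 lower (2.75% of all genes), and limma-voom 0. At an unadjusted p under 0.05 in edgeR 6 were higher (9.06% of all genes) and 9 lower (8.45% of all genes). Without GIT1 CWT replicate 1 edgeR called 8 higher (4.99% of all genes) and 2 lower (1.79% of all genes). The first list held 8 other ARF GAPs and GEFs, of which 7 were tested and Iqsec3 had 0 counts, with a median log2 fold change of 0.25. It includes Git2, a close relative of Git1, with 111, 114 and 111 CPM in GIT1 CKO libraries, against 132, 166 and 159 CPM in GIT1 CWT libraries. The groups did not overlap (log2 fold change -0.44, standard error 0.111, adjusted p = 0.147). The 9 genes of the COPI coat, which ARF1 recruits, had a median of -0.07 and 0 passed the study's threshold. At an unadjusted p under 0.05, 2 of them were lower (8.45% of all genes). These were Cope, at 77.1 to 81.6 CPM in GIT1 CKO libraries and 86.9 to 119.6 CPM in GIT1 CWT libraries (adjusted p = 0.22), and Copg1, at 98.2 to 102 CPM, against 114 to 136 CPM (adjusted p = 0.26). Copa was at 347 to 357 CPM in GIT1 CKO libraries and 327 to 415 CPM in GIT1 CWT libraries, and Arcn1 at 241 to 250.0 CPM, against 182 to 288 CPM.

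Of 22 ARF-like and SAR GTPases, 21 were tested with a median of 0.08, and 1 was higher by the study's threshold, which 6.48% of all genes met in that direction. This was Trim23, with 17.1, 18.3 and 19.9 CPM in GIT1 CKO libraries, against 15.2, 6.49 and 9.54 CPM in GIT1 CWT libraries (log2 fold change 0.82, standard error 0.298, adjusted p = 0.241). The 19 genes of clathrin adaptors that ARFs recruit had a median of -0.10, and 2 were higher by that threshold (6.48% of all genes), Ap1s3 and Ap1s2, small subunits of the adaptor AP-1 (log2 fold changes 1.14 and 1.183, adjusted p = 0.182 and 0.242). Ap1s2 is on the X chromosome and had 85.5, 93.4 and 105 CPM in GIT1 CKO libraries, against 72.6, 21.5 and 31.2 CPM in GIT1 CWT libraries. Of 22 other effectors, with a median of -0.07, 1 was higher by the threshold (6.48% of all genes), the exocyst subunit Exoc5, at 58.3, 68.1 and 71.4 CPM in GIT1 CKO libraries, against 54.0, 21.8 and 34.2 CPM in GIT1 CWT libraries (log2 fold change 0.85, adjusted p = 0.246). Ap1s3 was at 2.55 to 3.60 CPM in GIT1 CKO libraries and 0.864 to 1.98 CPM in GIT1 CWT libraries. In Trim23, Ap1s2, Ap1s3 and Exoc5 alike, GIT1 CWT replicate 2 was the lowest library and replicate 1 the nearest to the GIT1 CKO libraries.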

How the data were processed

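Polyadenylated RNA of LPS-treated BMDMs was sequenced in 3 GIT1 CKO and 3 GIT1 CWT libraries, grouped by the submitters' sample titles. Per the submitters' processing notes, the authors used fastp 0.17.1, HISAT2 2.1.0 and DESeq2 1.18.1 in R 3.4.3; no source used here names the counting tool or the genome build. GENCODE M21 (GRCm38) held 52403 of the gene IDs, with an equal chromosome for 100% and an equal start for 96.49%, and 32 of the 37 members had the same coordinates. The authors deposited whole-number counts per gene, the input of every test here, and a normalized signal per library, the counts over 1 factor per library, checked only. Their fold changes and p-values were not used.

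Tests used edgeR 4.0.16 in R 4.3.3 (TMM scaling, filterByExpr with a minimum count of 10, robust quasi-likelihood F-test, Benjamini-Hochberg adjustment over the 16287 genes tested of 25239 with any count); adjusted p-values are from this test unless another tool is named. The standard error is the log2 fold change over the root of F. Fold changes (log2) are GIT1 CKO over GIT1 CWT, and the common biological coefficient of variation was 0.277. Exon lengths, GC content and sequences came from GENCODE M21. Nothing says that samples came from separate cultures or animals beyond the study calling them replicates, so p-values measure the spread between these samples.

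Alternatives were DESeq2 1.42.0, limma-voom (limma 3.58.1), other scalings, no filter, a filter of 1 CPM in 3 libraries, thinning to 61895190 counts, a replicate block, removal of the GC trend within libraries (lowess, span 0.3), exclusion of chromosomes X and Y and omission of each library. The fitting code was tested on simulated data with equal spread in both groups and no GC trend, unlike these libraries. That test checks the code only. The members and lists were chosen with earlier results of these data known. Values in every library were given for the GTPases, for members past the study's threshold and, in each other family, for the most abundant member per kilobase and that with the smallest p; Cyth1, and ranges for the rest, were added after the values were seen, as were the counts of members by direction or overlap without single libraries and the marker sums without their leading gene.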

Additional observations from a re-analysis of the deposited data

How the results depend on the processing

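With 3 libraries per group, single calls depended on the library set. The count of members lower at an adjusted p under 0.05 was 0 in edgeR (0.27% of all genes), 2 with DESeq2 (2.75%) and 1 with the GC trend removed (2.26%). It was 0 to 4 as each library was left out, where 0.00585% to 1.79% of all genes were called lower. The count higher was 0 in edgeR (0.485% of all genes), and 0 to 1 with a library left out, where 0% to 4.99% of all genes were. By the study's threshold, 0 members were higher (0 to 2 with a library left out, where 4.04% to 13.2% of all genes were) and 1 was lower (0 to 4, where 1.57% to 3.18% of all genes were). The median log2 fold change of the members was -0.16, and -0.206 to -0.0676 with a library left out, nearest to 0 without GIT1 CWT replicate 2. Signs turned for 6 of the 26 members named by rule, none of them called. With the GC trend removed, and with the replicate block added to that, these were Arf3 (0.0524 and 0.0531), Arf4 (-0.161 and -0.136), Acap2 (-0.196 and -0.190), Arap1 (0.0146 and 0.0144), Agfg2 (0.0141 and 0.0142) and Cyth4 (0.0965 and 0.0975). With each library left out in turn, Arf3 ran from -0.0992 to 0.0436 and Cyth4 from -0.141 to 0.128 (both above 0 without GIT1 CWT replicate 2), and Arf4 from -0.0469 to 0.307 (below 0 without GIT1 CKO replicate 3 or GIT1 CWT replicate 3). Cyth4 was 0.000381 with no filter. The other scalings, the 1 CPM filter, thinning, limma-voom and the exclusion of chromosomes X and Y turned no sign and changed no call of these members. Over all genes, edgeR called 123, against 1108 with DESeq2, 807 with the GC trend removed, 50 with both the block and GC removal, 1159, 400 and 1 without GIT1 CWT replicates 1, 2 and 3, and 3, 4 and 92 without GIT1 CKO replicates 1, 2 and 3. As a replicate block, the shared numbers left 1 gene called and 0 members; libraries of the same number did not deviate together (r = -0.048, 0.040 and 0.0075 across genes) and not every library correlated best with its own number, so the numbers were not taken as pairs.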
